A study of Mus musculus with 11 samples.

Results

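Integrins are cell surface receptors built from an alpha and a beta chain, and laminins are cross-shaped trimers of an alpha, a beta and a gamma chain that organize basement membranes. The genes examined are 44 of the 34570 genes listed in at least 1 of the deposited RNA-seq tables of mouse embryonic stem cells (mESCs) and mouse embryonic fibroblasts (MEFs). They were taken by gene symbol and not by level: 18 integrin alpha chains, 8 integrin beta chains, 11 laminin chains, and 7 further basement membrane proteins and receptors, namely Nid1, Nid2, Hspg2, Agrn, Dag1, Sparc and Npnt.

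The alpha chain largely sets what an integrin binds: some alpha chains bind collagen, others laminin, others the RGD sequence of fibronectin and vitronectin, and a further set serves leukocytes, while Itgb1 is the partner of most of them. In a basement membrane, laminin trimers polymerize at the cell surface, where integrins and dystroglycan hold them, and nidogens, perlecan (Hspg2) and agrin link that network to collagen IV. The early embryo makes mostly Lama1 and Lama5 trimers, whereas fibroblasts make interstitial matrix and carry collagen and fibronectin receptors.

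Atxn7l3 encodes an adaptor that the deubiquitylating module of the SAGA coactivator complex needs to take ubiquitin off histone H2B. The study compared cells with and without Atxn7l3. The libraries are polyadenylated RNA made with a stranded TruSeq kit. All cells came from DBA/2 x C57BL/6 mice. WT (2 libraries) and Atxn7l3-/- (3 libraries) mESCs were each derived from their own blastocyst and grew with LIF, 15% fetal calf serum and the inhibitors PD0325901 (1 uM) and CH99021 (3 uM), on feeder cells for 2 passages and then without them. WT and Atxn7l3-/- MEFs (3 libraries each) came from embryos at E10.5 and grew in DMEM with 10% fetal calf serum and penicillin/streptomycin. Per the study's methods, the null allele derives from a knockout-consortium construct with a LacZ and Neo cassette and loxP sites, turned into a null allele by a deleter recombinase, on a mixed background. Cell type, culture medium and deposited table go together in these libraries and cannot be told apart.

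Atxn7l3 itself was read first in every library, in CPM (its share of the counts of a library, with library sizes scaled by TMM over all 11 libraries). It stood at 196 and 202 in WT mESCs against 3.33, 1.604 and 0.831 in Atxn7l3-/- mESCs, 0.964% of the WT mean (log2 fold change -6.65, SE 0.53, adjusted p 0.0211 by the quasi-likelihood test of edgeR, p-values adjusted over all genes tested after Benjamini and Hochberg). In the MEF table it stood at 86.4, 117 and 104 in WT and 56.4, 55.3 and 73.2 in the libraries labelled Atxn7l3-/-, 60.3% of the WT mean (-0.74, SE 0.21, adjusted p 0.0715, edgeR; -0.75, adjusted p 0.0744, with a replicate block). The MEF groups do not overlap, but the transcript level does not mark these libraries as null in the way it does in mESCs, and they are called MEFs labelled Atxn7l3-/- here. The transcript level alone does not settle their genotype. The study also measured ATXN7L3 protein in such cells, which is not among the values analysed here. Sex also differs between libraries. Xist read 9.71 and 23.0 in WT and 49.8, 45.8 and 2.38 in Atxn7l3-/- mESCs, with Ddx3y at 80.3 and 175 against 2.95, 0.791 and 192, so that in mESCs Ddx3y is low in 2 of 3 Atxn7l3-/- lines. The Y-linked Kdm5d is low in all 3 (5.90 and 22.8 against 0.744, 0.0214 and 0.584). Among MEFs, WT replicate 3 had Xist at 336 and Ddx3y at 0.244, and in the other 5 MEF libraries Ddx3y lay between 66.2 and 269 CPM.

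The promoters of the members that passed a genotype test are shown because the genotype comparisons turn on these genes. RefSeq promoter windows (build GRCm38.p6, 250 bases before to 50 after a transcript start, 300 in all) matched 29 of the 44 members, with 35 windows, and 7 of the 9 members called in a genotype comparison have one. Lamc3 and Nid2 are not in the table. Each is written in the direction of transcription, with capitals marking any match, on either strand, to GGGCGG (the GC box), TATAAA (the TATA box), TGANTCA (AP-1) or GGAATG (TEAD). The windows are Itga2 at chr13:114932051-114932350 (minus strand), Itga8 at chr2:12301895-12302194 (minus), Itga9 at chr9:118711442-118711741 (plus), Lama2 at chr10:27616893-27617192 (minus), Lamb1 at chr12:31265043-31265342 (plus), Lamb3 at chr1:193301744-193302043 and chr1:193301993-193302292 (plus, overlapping each other) and Nid1 at chr13:13437352-13437651 (plus). Those of Itga9, Lama2 and Lamb3 lie inside the span that the deposited tables give for the gene rather than at its outer end.
Itga2: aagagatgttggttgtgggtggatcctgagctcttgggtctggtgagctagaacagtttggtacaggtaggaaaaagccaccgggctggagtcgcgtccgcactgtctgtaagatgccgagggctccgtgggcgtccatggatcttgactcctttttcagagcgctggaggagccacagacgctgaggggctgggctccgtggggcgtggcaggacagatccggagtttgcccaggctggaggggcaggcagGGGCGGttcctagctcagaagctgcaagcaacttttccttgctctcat
Itga8: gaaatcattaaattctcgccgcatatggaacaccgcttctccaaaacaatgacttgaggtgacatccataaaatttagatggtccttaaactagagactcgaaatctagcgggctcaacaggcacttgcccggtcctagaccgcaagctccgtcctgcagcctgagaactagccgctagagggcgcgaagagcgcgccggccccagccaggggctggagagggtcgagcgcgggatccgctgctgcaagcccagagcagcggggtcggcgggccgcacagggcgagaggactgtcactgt
Itga9: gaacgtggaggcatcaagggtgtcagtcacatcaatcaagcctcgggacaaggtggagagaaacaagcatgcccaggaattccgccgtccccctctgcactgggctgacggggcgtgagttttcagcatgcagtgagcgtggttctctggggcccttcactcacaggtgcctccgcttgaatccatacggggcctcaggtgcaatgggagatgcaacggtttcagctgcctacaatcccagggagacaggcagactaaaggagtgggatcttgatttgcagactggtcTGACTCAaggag
Lama2: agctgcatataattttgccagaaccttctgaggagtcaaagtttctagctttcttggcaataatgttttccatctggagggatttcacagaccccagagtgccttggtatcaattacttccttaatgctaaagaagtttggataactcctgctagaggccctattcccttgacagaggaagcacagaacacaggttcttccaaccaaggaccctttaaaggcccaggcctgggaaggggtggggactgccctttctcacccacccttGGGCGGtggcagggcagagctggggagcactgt
Lamb1: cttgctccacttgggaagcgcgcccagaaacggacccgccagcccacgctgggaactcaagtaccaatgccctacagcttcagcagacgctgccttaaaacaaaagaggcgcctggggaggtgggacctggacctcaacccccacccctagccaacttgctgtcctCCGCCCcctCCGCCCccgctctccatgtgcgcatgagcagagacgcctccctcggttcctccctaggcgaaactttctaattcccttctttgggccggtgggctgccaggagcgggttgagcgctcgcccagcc
Lamb3 (window 1): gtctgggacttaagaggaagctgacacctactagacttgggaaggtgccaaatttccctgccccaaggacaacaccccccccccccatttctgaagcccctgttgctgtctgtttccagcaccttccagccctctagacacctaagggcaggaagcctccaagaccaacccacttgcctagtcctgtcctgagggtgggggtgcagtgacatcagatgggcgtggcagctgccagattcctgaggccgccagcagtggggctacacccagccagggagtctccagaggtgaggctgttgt
Lamb3 (window 2): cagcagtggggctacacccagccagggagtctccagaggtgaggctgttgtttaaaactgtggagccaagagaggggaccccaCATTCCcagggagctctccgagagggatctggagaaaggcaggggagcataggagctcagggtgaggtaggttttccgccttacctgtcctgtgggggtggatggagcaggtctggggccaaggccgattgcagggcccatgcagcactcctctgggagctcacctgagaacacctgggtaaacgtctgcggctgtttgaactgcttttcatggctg
Nid1: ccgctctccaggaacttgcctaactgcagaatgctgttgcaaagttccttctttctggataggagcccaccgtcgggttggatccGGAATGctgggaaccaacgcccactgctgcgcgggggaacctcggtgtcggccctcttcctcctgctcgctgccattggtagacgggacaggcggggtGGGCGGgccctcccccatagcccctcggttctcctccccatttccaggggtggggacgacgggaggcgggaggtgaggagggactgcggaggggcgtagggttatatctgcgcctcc
GGGCGG occurs in the windows of Itga2, Lama2, Lamb1 (2 matches) and Nid1, GGAATG in those of Nid1 and Lamb3 (window 2), TGANTCA in that of Itga9, and none of these letters in that of Itga8. Over all 32851 promoter windows of the table, 35.7% hold GGGCGG, 13.6% TATAAA, 7.81% TGANTCA and 14.7% GGAATG, beside 19, 0, 3 and 4 of the 35 windows of members. A match describes the letters and shows neither binding nor a cause.

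The first comparison asks which of these genes WT MEFs and WT mESCs express. Many integrin chains were higher in WT fibroblasts than in WT stem cells, among them the collagen receptors Itga1, Itga2 and Itga11 and the shared beta chain Itgb1. The laminin alpha chains split by cell type, with Lama2 and Lama4 on the fibroblast side and Lama1, Lama3 and Lama5 on the stem cell side. Of 42 members tested, 30 were called at an adjusted p of 0.05 or less (edgeR), 21 higher and 9 lower in MEFs (71.4%), where 54% of all 19312 genes tested were called, 26.8% higher and 27.1% lower. Adjusted over the list alone, 31 members were called, a count with no share of all genes at the same cut beside it. The median log2 difference of the members was 1.40 (the same with Itgb8 at its lower bound) and that of all genes tested -0.01, which upper-quartile scaling moved to -0.12. In 34 of the 42 the WT groups did not overlap (25 higher, 9 lower), beside 72.4% of all genes tested. The fit spans all 11 libraries and this comparison uses the same WT libraries as the genotype comparisons.

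**Figure D1:**
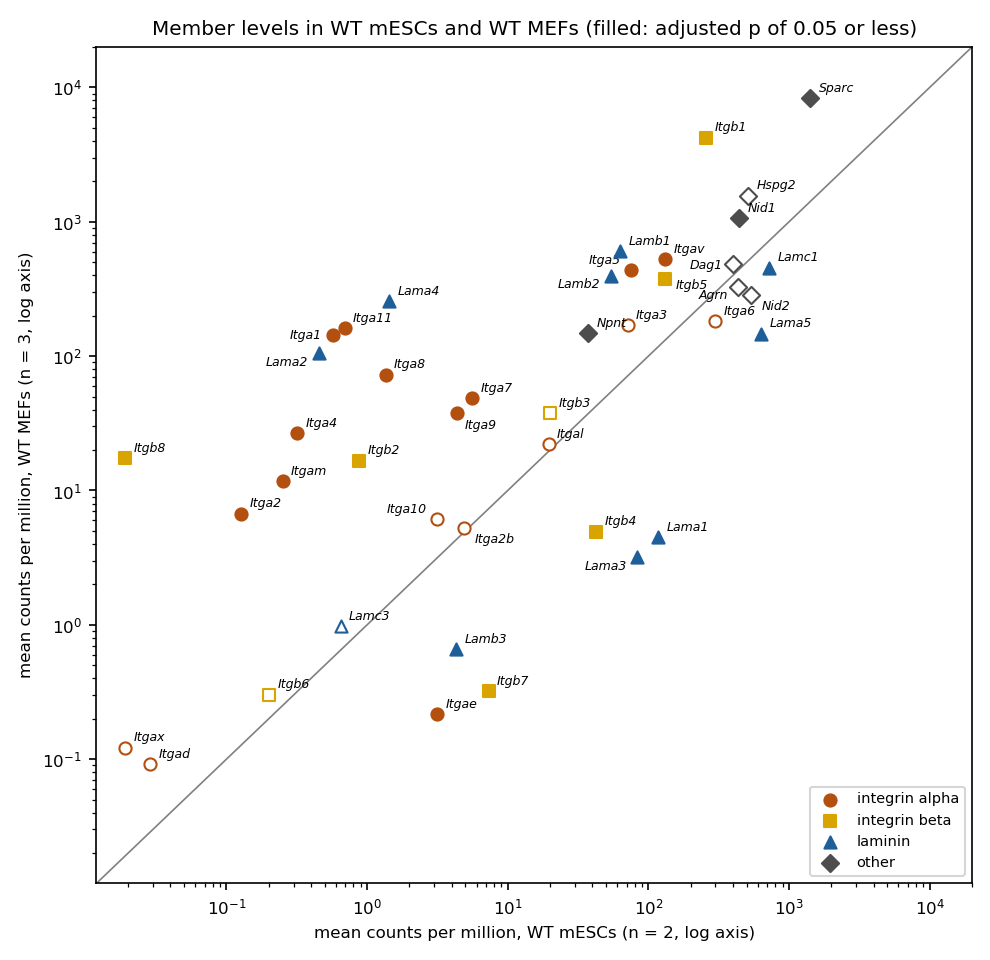
Mean level of the members in WT mESCs (x axis, 2 libraries) and WT MEFs (y axis, 3 libraries), in CPM on log axes, where filled points passed an adjusted p of 0.05 and the diagonal marks equal levels. Itgb8, at 0 in WT mESCs, is drawn under the lowest floor, and Itgb1, Sparc and the collagen receptors lie above the diagonal while Lama1, Lama3 and Lama5 lie below it.

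The 4 collagen-binding alpha chains pair with Itgb1. Itga1, a receptor for collagen IV and other collagens, was at 0.438 and 0.699 CPM in WT mESCs, 0.385, 0.813 and 0.472 in Atxn7l3-/- mESCs, 234, 97.3 and 98.8 in WT MEFs and 105, 60.2 and 73.6 in MEFs labelled Atxn7l3-/-. WT MEFs exceeded WT mESCs by a log2 difference of 7.98 (SE 0.64, adjusted p 9.90e-06, edgeR), and every MEF library lay above every mESC library. Itga11, a fibroblast receptor for fibrillar collagen, was at 0.438 and 0.945 CPM in WT mESCs, 1.64, 4.17 and 2.74 in Atxn7l3-/- mESCs, 68.9, 285 and 132 in WT MEFs and 1.01, 0.281 and 35.6 in MEFs labelled Atxn7l3-/-. Its WT difference was 7.87 (SE 1.99, adjusted p 0.00708, edgeR; 0.0635 and 0.0521 without mESC WT replicate 1 and 2), and MEFs labelled Atxn7l3-/- ranged from under 1 to over 35, the widest ratio within any group for this gene. Itga10, a chondrocyte collagen receptor, was at 2.82 and 3.51 CPM in WT mESCs, 1.77, 2.78 and 1.86 in Atxn7l3-/- mESCs, 6.39, 7.30 and 4.60 in WT MEFs and 30.8, 16.9 and 10.49 in MEFs labelled Atxn7l3-/-. It was not called between the WT groups (0.94, SE 0.49, adjusted p 0.123, edgeR). Itga2, which binds collagen and laminin, was close to the floor of 3 counts (0.0571 to 0.0935 CPM) in mESCs and at 8.83, 6.17 and 5.16 in WT MEFs. Per kb of the deposited median transcript length Itga1 leads this set in WT MEFs, per kb of merged exons Itga11 does.

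Among the laminin-binding chains, Itga6 pairs with Itgb1 or Itgb4 and is a classical stem cell surface marker. It was at 342 and 257 CPM in WT mESCs, 263, 327 and 227 in Atxn7l3-/- mESCs, 295, 52.9 and 199.9 in WT MEFs and 109, 25.7 and 42.1 in MEFs labelled Atxn7l3-/-. The WT groups overlap and the gene was not called (-0.71, SE 0.65, adjusted p 0.373, edgeR). Itga6 leads the integrin alpha chains of WT mESCs on both length scales, at 43.2% of their summed level per kb of deposited length and 41.2% per kb of merged exons. Itga3, the epithelial receptor for laminins with Lama3 or Lama5, was at 88.0 and 54.2 CPM in WT mESCs, 66.1, 66.0 and 63.6 in Atxn7l3-/- mESCs, 358, 36.6 and 119 in WT MEFs and 564, 402 and 577 in MEFs labelled Atxn7l3-/-. WT MEF replicate 2 was low in both genes, so that the spread within WT MEFs is wide. Itga7, the muscle laminin receptor, was higher in WT MEFs (3.12, SE 0.68, adjusted p 0.00310) and Itgb4, the hemidesmosome chain, lower (-3.11, SE 0.50, adjusted p 0.000542).

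Of the RGD-binding chains and their partners, Itgb1 is the beta chain that most alpha chains share. It was at 248 and 267 CPM in WT mESCs, 461, 344 and 331 in Atxn7l3-/- mESCs, 5137, 1811 and 5719.8 in WT MEFs and 2075, 1545 and 2211 in MEFs labelled Atxn7l3-/-. WT MEFs exceeded WT mESCs 16.4-fold (log2 fold change 4.04, SE 0.50, adjusted p 0.000120, edgeR), every MEF library lying above every mESC library. In WT MEFs it made 75.5% of the beta chains per kb of deposited length and 87.0% per kb of merged exons. Itgb5, which pairs with Itgav to bind vitronectin, was at 127 and 136 CPM in WT mESCs, 112, 105 and 89.7 in Atxn7l3-/- mESCs, 321, 432 and 381 in WT MEFs and 118, 59.1 and 325 in MEFs labelled Atxn7l3-/-. It leads the beta chains of WT mESCs per kb of deposited length (56.8%), whereas Itgb1 does per kb of merged exons (56.0%). The WT difference of Itgb5, 1.52 (adjusted p 0.0361, edgeR), was not called without MEF WT replicate 2 or 3 (0.0681, 0.0627), without mESC WT replicate 1 or 2 (0.149, 0.138), without mESC Atxn7l3-/- replicate 1 or 2 (0.0502, 0.0510) or with a replicate block (0.0633). Itga5, the fibronectin receptor, was higher in WT MEFs by a log2 of 2.54 (adjusted p 0.00753; 0.0687 without mESC WT replicate 1) and Itgav by 2.00 (adjusted p 0.00340). Itgb8, which with Itgav binds latent TGF-beta, had no count in either WT mESC library and 40.5, 6.98 and 4.72 CPM in WT MEFs (adjusted p 0.000920; 0.000660 without MEF WT replicate 1, the highest). Itga8, the Npnt receptor, was higher as well (5.74, SE 0.68, adjusted p 8.86e-05), and Itga2b and Itgb3, the platelet receptor chains, were not called (0.09 and 0.92).

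The alpha-4, alpha-9 and leukocyte chains serve migrating and blood cells. Itga9, a receptor for tenascin and other ligands of migrating cells, was at 4.17 and 4.52 CPM in WT mESCs, 2.59, 2.25 and 5.48 in Atxn7l3-/- mESCs, 29.6, 53.8 and 30.6 in WT MEFs and 5.51, 7.25 and 14.6 in MEFs labelled Atxn7l3-/-. It was higher in WT MEFs (3.13, SE 0.58, adjusted p 0.00127, edgeR), with no overlap. Itgb2 and Itgam form a macrophage integrin. Itgb2 was at 0.990 and 0.760 CPM in WT mESCs, 2.95, 1.03 and 0.674 in Atxn7l3-/- mESCs, 21.1, 18.1 and 10.96 in WT MEFs and 70.4, 19.1 and 13.5 in MEFs labelled Atxn7l3-/-, and Itgam at 15.9, 13.2 and 6.11 in WT MEFs and 48.9, 8.37 and 6.75 in MEFs labelled Atxn7l3-/-, both highest in replicate 1 of the latter. Itgae and Itgb7, partners in intraepithelial lymphocytes, were lower in WT MEFs than in WT mESCs (-3.85 and -4.54), and Itga4, Itgam and Itgb2 higher (6.38, 5.54 and 4.25). Itgb7 had 3, 26 and 4 counts in WT MEFs, and its log2 difference ran from -6.49 to -4.02 over the settings. That of Itga4 ran from 5.75 to 7.52. Itgal, the chain of T cells, overlapped between the WT groups and was not called (0.17, SE 0.43, adjusted p 0.758, edgeR). Itgad and Itgax were too low to be tested. Itgb6, an epithelial chain, was tested between the WT groups and not called (0.60, SE 1.05, adjusted p 0.648), and was too low for a genotype test in either cell type.

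Laminin alpha chains decide which integrins a laminin binds. Lama5, the broadly expressed chain, was at 702 and 568 CPM in WT mESCs, 792, 870.0 and 953 in Atxn7l3-/- mESCs, 187, 105 and 149 in WT MEFs and 236, 168 and 365 in MEFs labelled Atxn7l3-/-. It was lower in WT MEFs (log2 fold change -2.11, SE 0.33, adjusted p 0.000473, edgeR) and every mESC library lay above every MEF library. Per kb of deposited length it made 97.8% of the laminin alpha chains in WT mESCs and 64.6% in WT MEFs, but per kb of merged exons 73.5% and 32.7%, the deposited length of Lama5 being 5.32% of its merged exons. Lama4, the mesenchymal and vascular chain, was at 1.41 and 1.46 CPM in WT mESCs, 1.67, 2.82 and 1.68 in Atxn7l3-/- mESCs, 284, 360.3 and 129 in WT MEFs and 101.1, 99.5 and 54.5 in MEFs labelled Atxn7l3-/-. Its WT difference was 7.49 (SE 0.60, adjusted p 9.53e-06, edgeR), with no overlap, and its share in WT MEFs was 27.0% per kb of deposited length or 50.7% per kb of merged exons. The order of Lama5 and Lama4 in WT MEFs therefore depends on the length scale.

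Lama1, the chain of the first embryonic basement membranes, was at 109.8 and 124 CPM in WT mESCs, 105, 78.3 and 134 in Atxn7l3-/- mESCs, 3.01, 5.86 and 4.65 in WT MEFs and 0.954, 0.102 and 0.837 in MEFs labelled Atxn7l3-/-. The log2 difference of WT MEFs from WT mESCs was -4.70 (SE 0.59, adjusted p 0.000119, edgeR), without overlap. Lama3, of skin and other epithelia, went the same way (-4.71, SE 0.74, adjusted p 0.000462), and Lama2, the muscle and nerve chain, the other way (7.86, SE 1.38, adjusted p 0.000914).

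The beta and gamma chains complete the trimers. Lamb1 and Lamb2 are the common beta chains, and Lamb2 was at 36.9 and 71.1 CPM in WT mESCs, 123, 128 and 249 in Atxn7l3-/- mESCs, 339, 499.7 and 349 in WT MEFs and 87.4, 88.8 and 211 in MEFs labelled Atxn7l3-/-. Both were higher in WT MEFs (3.28 and 2.87, adjusted p 0.000125 and 0.00115, edgeR), whereas Lamb3, the epithelial beta chain, was lower (-2.69, SE 0.54, adjusted p 0.00200). Lamc1, the gamma chain of most laminins, was at 645 and 794 CPM in WT mESCs, 770.3, 774 and 860.0 in Atxn7l3-/- mESCs, 615, 377 and 378 in WT MEFs and 746, 693 and 761 in MEFs labelled Atxn7l3-/-. It led the gamma chains on both scales, with 92.0% (deposited length) or 87.0% (merged exons) in WT mESCs and 98.3% or 96.9% in WT MEFs. Its WT difference was small (-0.66, SE 0.25, adjusted p 0.0465, edgeR) and was called in 5 of 17 settings, with adjusted p from 0.00707 to 0.255. Of the fits that leave out a library, only the one without MEF WT replicate 1 gave a call.

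**Figure D2:**
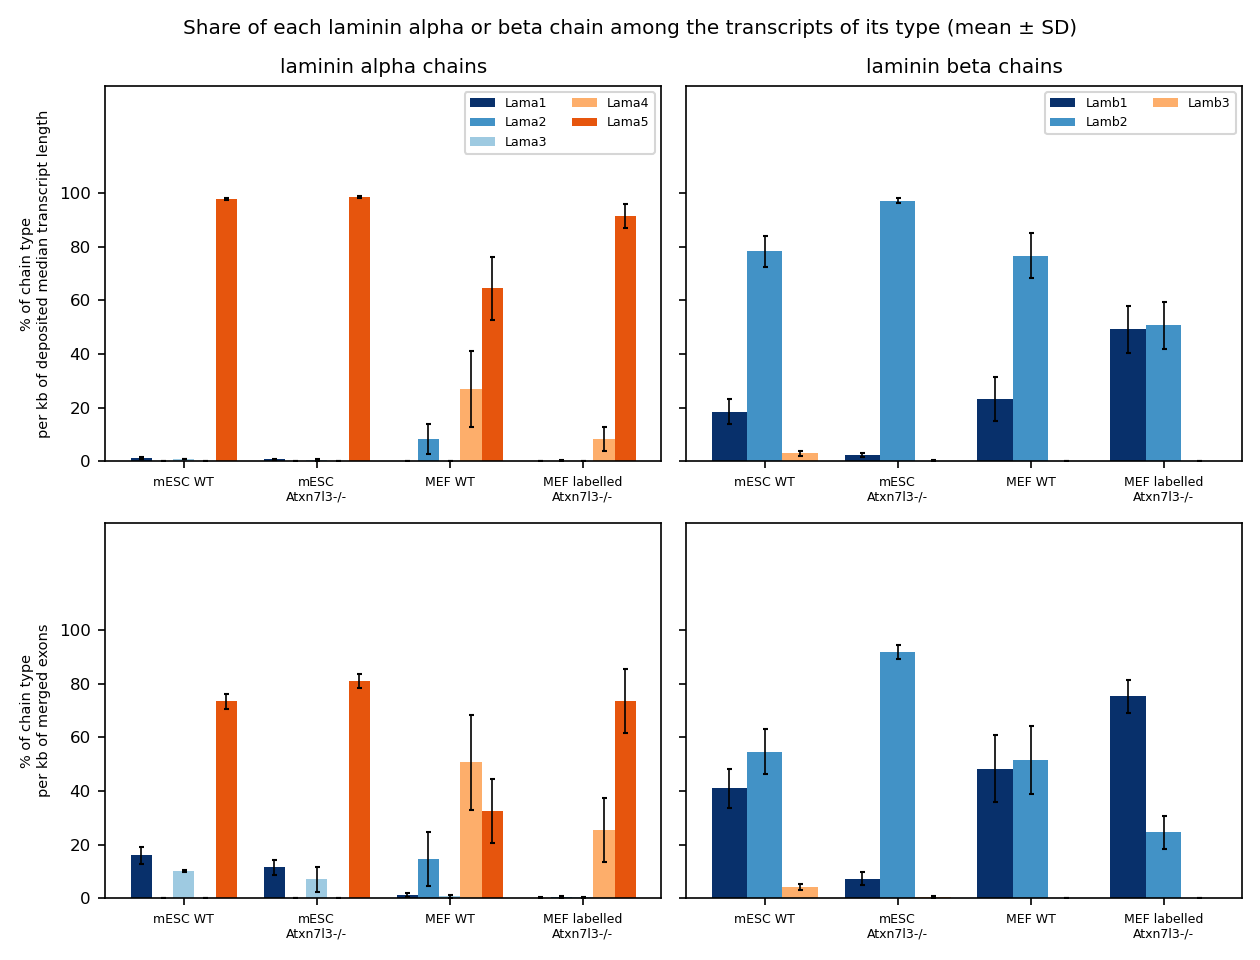
Share of each laminin alpha and beta chain in the summed level of its chain type (percent, mean with SD over libraries) in the 4 groups, per kb of deposited median transcript length (top) and per kb of merged exons (bottom). Lamb1 goes from 18.5% to 2.44% (top) or from 41.0% to 7.38% (bottom) of the beta chains between WT and Atxn7l3-/- mESCs, and lies higher in MEFs labelled Atxn7l3-/- than in WT MEFs.

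Of the other proteins, Sparc, a collagen-binding matricellular protein, had the highest level per length in every group on both scales. It was at 1719.6 and 1107 CPM in WT mESCs, 2217, 2211 and 2089.9 in Atxn7l3-/- mESCs, 7670.5, 11358 and 5992 in WT MEFs and 14193, 11653 and 11472 in MEFs labelled Atxn7l3-/-. WT MEFs exceeded WT mESCs (log2 fold change 2.56, SE 0.37, adjusted p 0.000308, edgeR), without overlap. Nid1 links laminin to collagen IV and was also higher in WT MEFs (1.27, SE 0.34, adjusted p 0.00996; adjusted p 0.0870 without mESC WT replicate 1), as was Npnt, a ligand of Itga8 (1.98, SE 0.52, adjusted p 0.00846; 0.0850 without mESC WT replicate 2). Hspg2, Nid2, Agrn and Dag1 were not called. Of the 30 called members, 24 were called in every setting in which they were tested.

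The second comparison asks what the loss of Atxn7l3 goes with in mESCs. The largest called change among the members is in the laminin beta chains, where Lamb1 and Lamb3 were lower, and the only called rise is that of Nid1. No integrin chain passed the test. Of 37 members tested, 3 were called (edgeR), 1 up and 2 down (8.11%), where 6.96% of all 17800 genes tested were called, 3.08% up and 3.88% down. With the study's thresholds added (2-fold, and over 10 normalized reads per kb) the members called were 3 and the share of all genes 4.68%. Adjusted over the list alone, 8 members were called (6 up, 2 down), and 17 had an unadjusted p under 0.05. The shares of all genes at the same cuts are not given, so these counts are not read as particular to the members. The median log2 fold change of the members was 0.36 and that of all genes tested 0.04. In 21 of the 37 the groups did not overlap (16 higher, 5 lower in Atxn7l3-/-), beside 49.7% of all genes tested. The p-values here measure only the spread between these lines. Per the study's methods, a further WT mESC dataset was left out because it stood apart in a principal component analysis. The WT spread is therefore that of the lines kept.

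**Figure D3:**
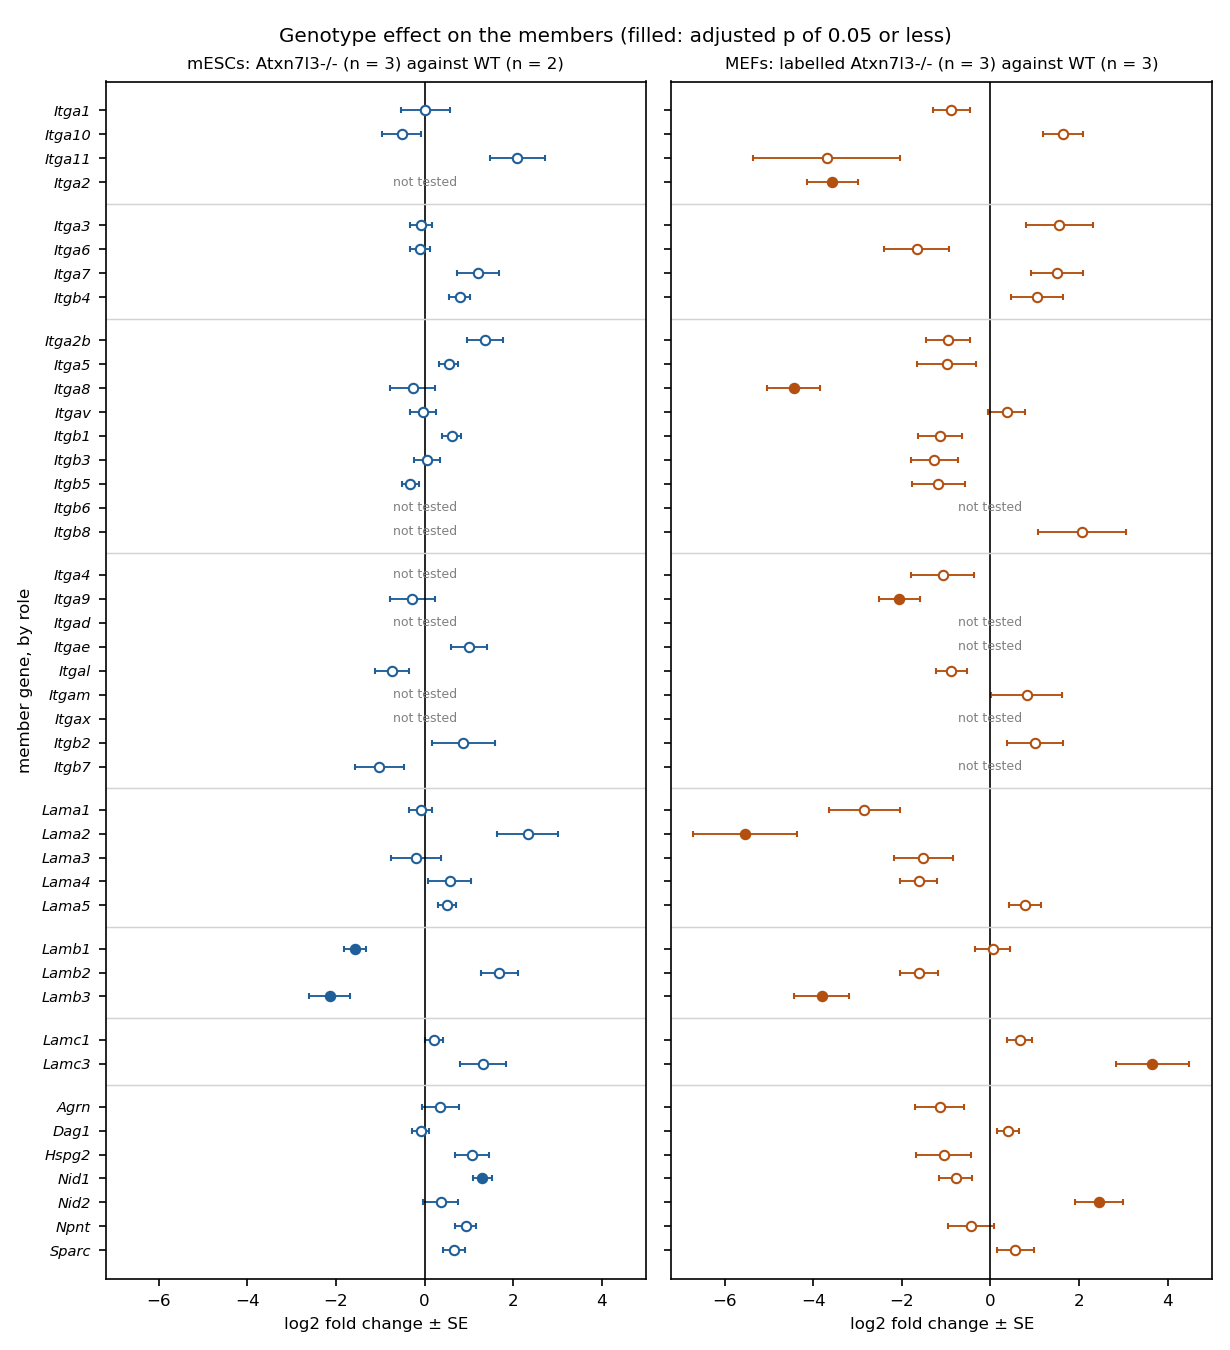
Log2 fold change of the members, Atxn7l3-/- against WT, with its SE, in mESCs (left) and MEFs (right), grouped by role, where filled points passed an adjusted p of 0.05 (edgeR). Lamb1, Lamb3 and Nid1 are filled on the left, and Itga2, Itga8, Itga9, Lama2, Lamb3, Lamc3 and Nid2 on the right.

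Lamb1, the beta chain of the earliest laminins, whose promoter window holds GGGCGG at 2 places, stood at 57.0 and 68.5 CPM in WT mESCs and 22.2, 15.7 and 22.7 in Atxn7l3-/- mESCs. It fell 3.11-fold (log2 fold change -1.58, SE 0.25, adjusted p 0.0233, edgeR quasi-likelihood test, Benjamini-Hochberg adjusted). The groups do not overlap, and the lowest WT line is above every Atxn7l3-/- line by more than 2-fold. The adjusted p was 0.0815 without Atxn7l3-/- replicate 1, 0.151 without WT replicate 1 and 0.171 without WT replicate 2. Lamb3, which forms an epithelial laminin with Lama3, stood at 4.06 and 4.54 against 1.21, 0.962 and 0.651. It fell 4.57-fold (-2.14, SE 0.46, adjusted p 0.0399, edgeR) and its groups do not overlap either. Its adjusted p was 0.0964 without Atxn7l3-/- replicate 1, 0.0509 without Atxn7l3-/- replicate 2, 0.208 without WT replicate 1 and 0.222 without WT replicate 2, 0.0597 in 1 fit of all 11 libraries and 0.0618 with a replicate block. Lamb2 moved the other way, from 36.9 and 71.1 to 123, 128 and 249, without overlap and without passing the threshold (1.69, SE 0.42, adjusted p 0.0541). It was called without Atxn7l3-/- replicate 2 or 3. Lamb1 made 18.5% of the beta chains in WT and 2.44% in Atxn7l3-/- mESCs per kb of deposited length, or 41.0% and 7.38% per kb of merged exons.

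Nid1 stood at 381 and 499.7 CPM in WT and 1079.8, 943 and 1121 in Atxn7l3-/- mESCs. It rose 2.38-fold (1.31, SE 0.22, adjusted p 0.0274, edgeR). The Atxn7l3-/- lines lie close together and above both WT lines. Single libraries decide this call, with adjusted p 0.0835 without Atxn7l3-/- replicate 1, 0.201 without WT replicate 1 and 0.157 without WT replicate 2, and 0.0807 in 1 fit of all 11 libraries. Its paralog Nid2 was at 478 and 596 against 552, 397 and 1030.5, overlapping and not called (0.36, SE 0.40, adjusted p 0.576). Npnt (45.4 and 29.4 against 66.1, 72.9 and 67.7; 0.93, SE 0.24, adjusted p 0.0593) did not overlap and was not called. Hspg2, Agrn, Dag1 and Sparc were not called, with log2 fold changes from -0.09 to 1.07.

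No laminin alpha chain and no gamma chain passed the test in mESCs (edgeR; 2 of 5 and 1 of 3 with an unadjusted p under 0.05, and 1 and 0 called by DESeq2). Lama2 was low in all lines, at 0.267 and 0.637 in WT and 2.10, 3.40 and 1.101 in Atxn7l3-/- mESCs (2.32, SE 0.69, adjusted p 0.0780), and the groups do not overlap. Itgb1 was higher in every Atxn7l3-/- line than in both WT lines without passing the threshold (0.61, SE 0.22, adjusted p 0.119). Of the integrin chains, 0 of 19 were called by edgeR, 7 had an unadjusted p under 0.05 and 3 were called by DESeq2 (Itga11, Itga2b and Itgae). Their log2 fold changes ran from -1.02 to 2.09.

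The count in mESCs depends on single libraries. Without WT replicate 1, without WT replicate 2 or without Atxn7l3-/- replicate 1, 0 members were called by edgeR (9, 8 and 12 with an unadjusted p under 0.05), and of all genes tested 0, 0 and 3 were called. With 1 WT library left, that library is assumed to vary like the others. Without Atxn7l3-/- replicate 2 there were 3 calls and without replicate 3 there were 5. For the fits without replicate 2 or 3 no share of all genes is given, so their counts are not read as particular to the members. DESeq2 called 9 members, the 3 named here and Itga11, Itga2b, Itgae, Lama2, Lamb2 and Npnt, and 10.9% of 31102 genes.

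The third comparison sets MEFs labelled Atxn7l3-/- against WT MEFs. Most called changes are falls, in the collagen receptor Itga2, the Npnt receptor Itga8, Itga9 and the laminin chains Lama2 and Lamb3. The called rises are Nid2 and Lamc3. Of 39 members tested, 7 were called (edgeR), 2 up and 5 down (17.9%), where 9.41% of all 15958 genes tested were called, 5.01% up and 4.39% down, or 7.6% with the study's thresholds added (7 members). Adjusted over the list alone, 11 members were called (3 up, 8 down), and 14 had an unadjusted p under 0.05. The shares of all genes at the same cuts are not given, so these counts are not read as particular to the members. The median log2 fold change of the members was -0.89 and that of all genes tested -0.06. In 21 of the 39 the groups did not overlap (9 higher, 12 lower), beside 39.8% of all genes tested. With the replicate number as a block, 12 members were called (3 up, 9 down), adding Agrn, Itga10, Itga6, Itgb3 and Lama4, where 14.0% of all genes were called (877 up, 1355 down). Upper-quartile scaling moved the median of all genes from -0.06 to -0.17, and a GC correction to 0.13.

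**Figure D4:**
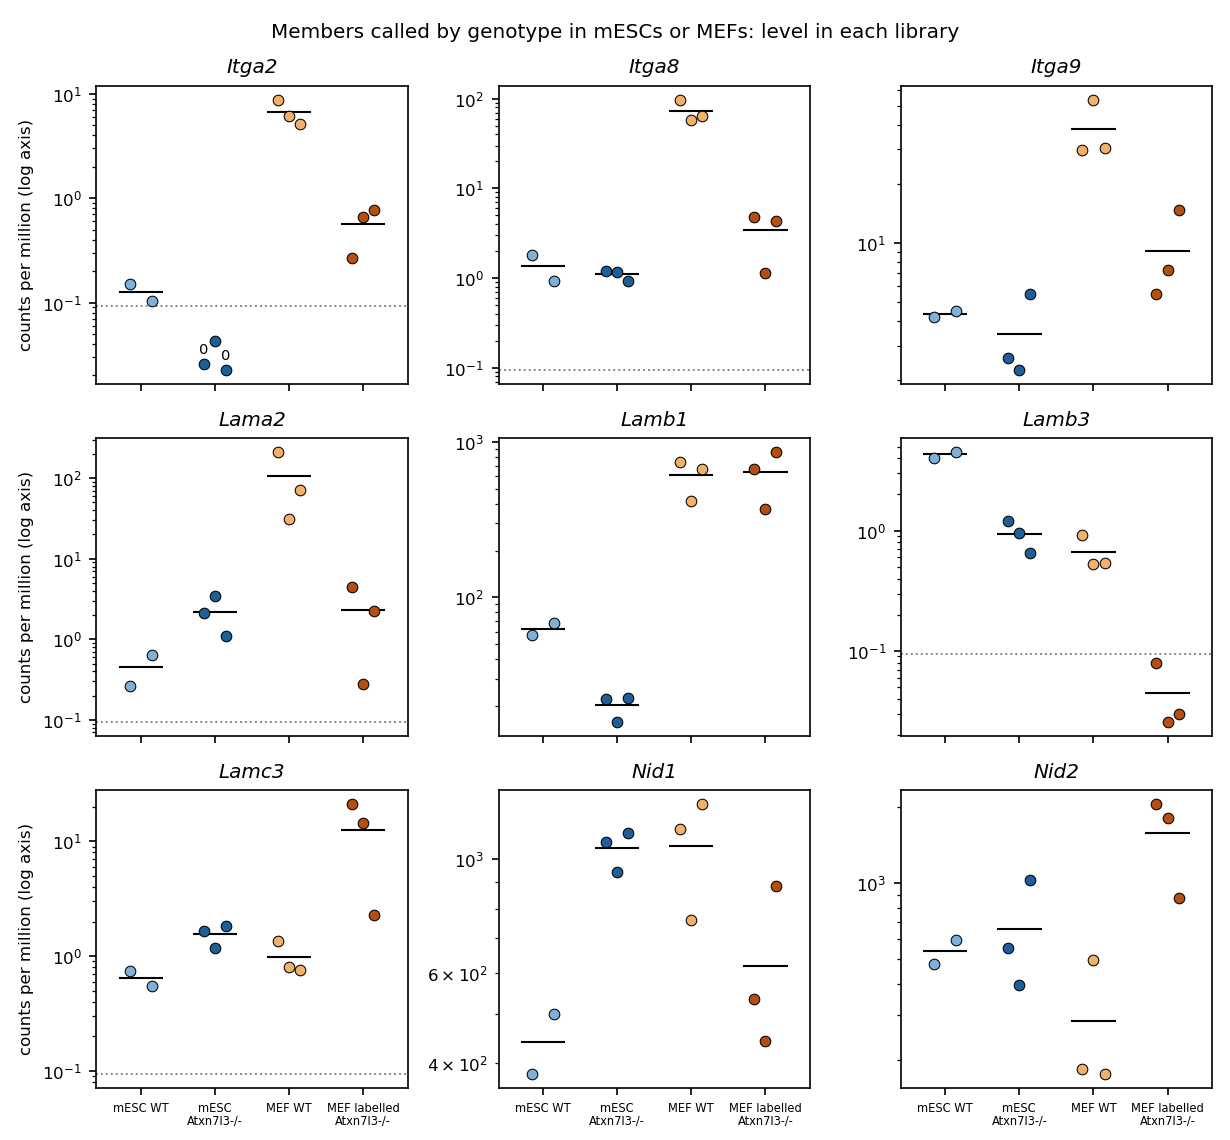
Level of the 9 members called in a genotype comparison, in CPM on a log axis, in each of the 11 libraries (points), with the group mean (bar, left out where a library is at 0). Libraries at 0 are drawn under the dotted line, which marks the highest floor of 3 counts (0.0935 CPM), and Itga8 and Lama2 show the widest gaps between MEF groups and Lamb1 is even between them.

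Itga8 is the receptor through which mesenchyme binds Npnt, and its promoter window holds none of the motifs searched. It stood at 97.8, 57.1 and 63.8 CPM in WT MEFs and 4.74, 1.15 and 4.30 in MEFs labelled Atxn7l3-/-. It fell 21.5-fold (log2 fold change -4.44, SE 0.59, adjusted p 0.0138, edgeR quasi-likelihood test, Benjamini-Hochberg adjusted; -4.62, adjusted p 0.0139, with the replicate block). The lowest WT library is above the highest labelled Atxn7l3-/- library by more than 10-fold. Itga8 is the only called member that passed in all 16 settings, with log2 fold changes from -4.79 to -4.02 and adjusted p up to 0.0492. Its ligand Npnt was at 213, 74.9 and 154 against 145, 139.5 and 48.5, with overlap, and was not called (-0.44, SE 0.51, adjusted p 0.574).

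Itga2 stood at 8.83, 6.17 and 5.16 CPM in WT MEFs and 0.265, 0.664 and 0.777 in MEFs labelled Atxn7l3-/-. It fell 11.8-fold (-3.57, SE 0.58, adjusted p 0.0214, edgeR; -3.62, adjusted p 0.0305, with the block), and the groups are far apart. Leaving out single libraries ended the call of Itga2, with adjusted p 0.0630 without labelled Atxn7l3-/- replicate 1, 0.0717 without labelled Atxn7l3-/- replicate 2, 0.0550 without WT replicate 1 and 0.0596 without WT replicate 3. Its neighbour on chromosome 13, Itga1, was at 234, 97.3 and 98.8 against 105, 60.2 and 73.6, with overlap, and was not called (-0.88, SE 0.42, adjusted p 0.191). Itga11 spread from 68.9, 285 and 132 in WT to 1.01, 0.281 and 35.6, where replicate 3 stands apart, and was not called (-3.69, SE 1.66, adjusted p 0.174). Itga10 moved up, from 6.39, 7.30 and 4.60 to 30.8, 16.9 and 10.49, without overlap and without passing (1.64, SE 0.45, adjusted p 0.0641; called with the block).

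Itga9 stood at 29.6, 53.8 and 30.6 CPM in WT MEFs and 5.51, 7.25 and 14.6 in MEFs labelled Atxn7l3-/-. It fell 4.16-fold (-2.06, SE 0.46, adjusted p 0.0436, edgeR; -2.15, adjusted p 0.0396, with the block). The groups do not overlap, and replicate 3 of the labelled Atxn7l3-/- libraries lies nearest to WT. The adjusted p was 0.113 without labelled Atxn7l3-/- replicate 1, 0.141 without labelled Atxn7l3-/- replicate 2, 0.0718 without WT replicate 1, 0.0841 without WT replicate 2 and 0.0963 without WT replicate 3, and 0.0544 with a GC correction. Itgb1 did not pass (-1.14, SE 0.49, adjusted p 0.160), and WT replicate 2 lies inside the range of the labelled Atxn7l3-/- libraries. The epithelial chain Itga3 was at 358, 36.6 and 119 against 564, 402 and 577, without overlap and without passing (1.56, SE 0.75, adjusted p 0.197). Itga7 (74.1, 14.2 and 57.2 against 139.9, 98.9 and 178; 1.4995, SE 0.58, adjusted p 0.134) gave the same picture. Itgb8 was spread out in both groups (40.5, 6.98 and 4.72 against 48.4, 149 and 26.9; 2.06, SE 0.99, adjusted p 0.196).

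Lama2, whose loss causes a muscular dystrophy in mice and people, stood at 213, 30.8 and 71.4 CPM in WT MEFs and 4.45, 0.281 and 2.24 in MEFs labelled Atxn7l3-/-. It fell 45.2-fold, the largest called change among the members (-5.54, SE 1.17, adjusted p 0.0387, edgeR; -5.71, adjusted p 0.0110, with the block). Libraries within each group differ several-fold, yet the groups stay apart. Over the settings its log2 fold change ran from -6.37 to -4.47, the smallest without WT replicate 1, the highest WT library. The call of Lama2 ended at adjusted p 0.0769 without labelled Atxn7l3-/- replicate 1, 0.0758 without labelled Atxn7l3-/- replicate 2, 0.0624 without labelled Atxn7l3-/- replicate 3, 0.0702 without WT replicate 1 and 0.0847 without WT replicate 3. Lama4 was lower without overlap and was not called (284, 360.3 and 129 against 101.1, 99.5 and 54.5; -1.62, SE 0.43, adjusted p 0.0597; called with the block). Lama1 was low in all MEFs, at 3.01, 5.86 and 4.65 against 0.954, 0.102 and 0.837 (-2.85, SE 0.81, adjusted p 0.0693). Lama5, which did not pass (0.79, SE 0.36, adjusted p 0.184), made 64.6% of the alpha chains in WT MEFs and 91.6% in MEFs labelled Atxn7l3-/- per kb of deposited length, or 32.7% and 73.5% per kb of merged exons.

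Lamb3 was low in MEFs, at 45, 17 and 22 counts in WT and 3, 1 and 1 counts in the libraries labelled Atxn7l3-/-. It fell (-3.81, SE 0.63, adjusted p 0.0217, edgeR; -3.86, adjusted p 0.0227, with the block), and the pooled level of the labelled Atxn7l3-/- libraries was 6.59% of WT (5 against 84 counts, 95% counting interval 2.09 to 16.0%). Its adjusted p became 0.0661 without labelled Atxn7l3-/- replicate 1, 0.0888 without labelled Atxn7l3-/- replicate 2, 0.0552 without WT replicate 1 and 0.0647 without WT replicate 3, and with a minimum of 10 counts in every library the gene is not tested. Lamb3 is the 1 member called in both cell types. Lamb1, called in mESCs, was at 739, 419 and 666 against 668, 372 and 865 in MEFs, with overlap (0.05, SE 0.39, adjusted p 0.940). Lamb2 was lower in all 3 labelled Atxn7l3-/- libraries, at 339, 499.7 and 349 against 87.4, 88.8 and 211, and did not pass (-1.62, SE 0.42, adjusted p 0.0587; not called with the block).

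Lamc3, a gamma chain of few tissues, stood at 1.36, 0.811 and 0.755 CPM in WT MEFs and 21.3, 14.4 and 2.30 in MEFs labelled Atxn7l3-/-. It rose 13.0-fold (3.65, SE 0.83, adjusted p 0.0438, edgeR; 3.27, adjusted p 0.0381, with the block). Its log2 fold change ran from 3.09 to 4.74 over the settings. The groups do not overlap, and replicate 3 of the labelled Atxn7l3-/- libraries lies nearest to WT. The adjusted p was 0.113 without labelled Atxn7l3-/- replicate 1, 0.1199 without labelled Atxn7l3-/- replicate 2, 0.0791 without WT replicate 1, 0.0911 without WT replicate 2 and 0.129 without WT replicate 3. Nid2, the nidogen paralog, stood at 184, 495 and 175 against 2066, 1820.3 and 872. It rose 5.57-fold (2.46, SE 0.54, adjusted p 0.0414, edgeR; 2.54, adjusted p 0.0246, with the block), again without overlap. Its log2 fold change ran from 2.22 to 3.14 over the settings. Nid2 lost its call when a library was left out, with adjusted p 0.107 without labelled Atxn7l3-/- replicate 1, 0.117 without labelled Atxn7l3-/- replicate 2, 0.0880 without WT replicate 1 and 0.116 without WT replicate 3. Nid1, called up in mESCs, was at 1144, 759.7 and 1280.5 against 534, 442 and 884 here and was not called (-0.78, SE 0.37, adjusted p 0.189). Sparc, Hspg2, Agrn and Dag1 were not called, with log2 fold changes from -1.15 to 0.56. With the block Agrn was called (-1.22, adjusted p 0.0401, edgeR).

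The count in MEFs depends on single libraries as well. Only Itga8 was called without WT replicate 1, without WT replicate 3, without labelled Atxn7l3-/- replicate 1 or without labelled Atxn7l3-/- replicate 2. In these fits, in that order, 17, 12, 14 and 13 members had an unadjusted p under 0.05 (edgeR), against 14 in the main fit. Without WT replicate 2 there were 5 calls, and without labelled Atxn7l3-/- replicate 3 there were 12 (3 up, 9 down), with Lama2 not among them and Itga10, Itga11, Itga5, Itgb3, Itgb5 and Lamb2 added. The share of all genes called in these fits is not given here, so the counts are not read as particular to the members. DESeq2 called 12 members, the 7 named here and Itga10, Itga11, Lama1, Lama4 and Lamb2, and 13.4% of 29264 genes.

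Whether the genotype effect differs between the cell types was tested as the interaction of cell type and genotype over all 11 libraries, which shares its libraries with the other comparisons. Of 42 members tested, 8 were called (edgeR), 2 with a higher and 6 with a lower effect in MEFs (19.0%), where 11.4% of all 19312 genes tested were called, 6.15% higher and 5.27% lower. Adjusted over the list alone, 12 members were called, and 17 had an unadjusted p under 0.05. The shares of all genes at the same cuts are not given, so these counts are not read as particular to the members. The median difference of the members was -0.76 and that of all genes tested -0.09, which upper-quartile scaling moved to -0.19 and RLE scaling to -0.12. The laminins hold 5 of the 8 calls.

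Lama2 had the largest called difference, a log2 of -7.78 between its effects in MEFs and mESCs (SE 1.52, adjusted p 0.0144, edgeR). It was higher in Atxn7l3-/- mESCs, called there by DESeq2 but not by edgeR, and lower in MEFs labelled Atxn7l3-/-. Lamb2 had the same pattern (-3.24, SE 0.65, adjusted p 0.0161), up in mESCs and down in MEFs. The main edgeR fits called Lamb2 in neither cell type alone, whereas DESeq2 called it in both. Nid1, called up in mESCs, differed by -2.03 (SE 0.45, adjusted p 0.0221). Itga8 overlapped between genotypes in mESCs (1.79 and 0.925 against 1.21, 1.15 and 0.921 CPM), and its effects differed by -4.11 (SE 0.76, adjusted p 0.0115). Lama1 (-2.69, SE 0.78, adjusted p 0.0495) and Lama4 (-2.12, SE 0.59, adjusted p 0.0432) moved mainly in MEFs. In MEFs the main edgeR fit called neither, the replicate block called Lama4 (adjusted p 0.0222, edgeR), and DESeq2 called both. In the other direction, Lamb1 differed by 1.70 (SE 0.48, adjusted p 0.0445) and Itga10 by 2.23 (SE 0.64, adjusted p 0.0462). Of the 35 members tested in both cell types, 18 had effects of opposite sign (51.4%), as did 55.4% of the 14297 genes tested in both. Of these 18 members, 13 were up in mESCs and down in MEFs, beside 4204 of the 7927 genes of opposite sign.

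These calls are sensitive to single libraries and to settings. Without mESC WT replicate 1 or 2, 0 of the 42 were called by edgeR (12 and 13 with an unadjusted p under 0.05; DESeq2 with all libraries called 14, and 16.0% of all genes), and the adjusted p of Itga8, Lama2 and Lamb2, called in every other setting, rose to 0.0501 and 0.0742, 0.0967 and 0.0777, and 0.0923 and 0.0507. Of mESC Atxn7l3-/- libraries, leaving out replicate 1 gave 3 calls, replicate 2 gave 5 and replicate 3 gave 4. Of MEF libraries, leaving out WT replicate 3 gave 5 calls, labelled Atxn7l3-/- replicate 1 gave 3 and labelled Atxn7l3-/- replicate 3 gave 16. Shares of all genes are not given for these fits or the block fit, so the counts are not read as particular to the members. Nid1 was not called without replicate 1 of either Atxn7l3-/- group (0.0513 in mESCs, 0.0506 in MEFs) or without a WT mESC library (up to 0.116). Itga10, Lama1, Lama4 and Lamb1 were not called in 8 or more of the 11 fits that leave out a library, with adjusted p up to 0.158, 0.180, 0.158 and 0.158. Itga10 was still called without mESC Atxn7l3-/- replicate 2 or MEF labelled Atxn7l3-/- replicate 3, Lama1 without MEF WT replicate 1 or MEF labelled Atxn7l3-/- replicate 2 or 3, Lama4 without MEF WT replicate 3, and Lamb1 without MEF WT replicate 1 or MEF labelled Atxn7l3-/- replicate 2. With the replicate block 8 members were called, without Itga10 and Lama1 and with Hspg2 and Nid2. With all libraries, upper-quartile normalization also ended the calls of Itga10 (0.0557) and Lamb1 (0.0548), the GC correction that of Lama1 (0.0740), and a fit with no filter those of Itga10 (0.0548) and Lama1 (0.0518).

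Genes that work with the members were read as lists. Of the cytoplasmic focal adhesion proteins, which tie integrins to actin, 5 of 34 were called in mESCs (edgeR), 3 up and 2 down, against 6.96% of all genes (median 0.00, all genes 0.04). The largest change was in Fermt3, the blood cell kindlin, at 10.8 and 13.1 CPM in WT and 35.0, 39.2 and 45.0 in Atxn7l3-/- mESCs (1.78, SE 0.24, adjusted p 0.0211). Dock1 (1.22) and Itgb1bp1 (1.12) also rose, and Crk (-1.21) and Git1 (-0.80) fell. In MEFs 0 of 33 were called by edgeR (6 with an unadjusted p under 0.05, 2 called by DESeq2, 4 with the block, all down; of all genes 9.41%, 13.4% by DESeq2 and 14.0% with the block; median -0.32, all genes -0.06). Of other integrin ligands, 5 of 23 were called in mESCs, all 5 up, against 3.08% of all genes called up: Postn (3.28), Icam1 (2.11), Thbs1 (1.38), Cyr61 (1.34) and Mfge8 (1.21), with a list median of 1.11 (all genes 0.04). In MEFs 0 of 22 ligands were called by edgeR (7 with an unadjusted p under 0.05, 5 called by DESeq2, 2 with the block, 1 up and 1 down, beside the same shares of all genes; median -0.75, all genes -0.06).

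Of other basement membrane components, 4 of 24 were called in mESCs, all 4 up, against 3.08% of all genes (Fbln2 2.00, Sdc4 1.62, Fbln1 1.62, Sdc1 1.159; median 0.45). In MEFs 7 of 30 were called, 1 up and 6 down, against 5.01% of all genes up and 4.39% down, with a median of -1.40 against -0.06 for all genes. With the block 10 of 30 were called, 2 up and 8 down, against 14.0% of all genes. Col18a1 stood at 460.1, 159 and 421 in WT MEFs and 34.02, 5.87 and 9.35 in MEFs labelled Atxn7l3-/- (-4.44, SE 0.80, adjusted p 0.0264, edgeR; -4.68, adjusted p 0.0129, with the block). Col15a1 stood at 35.3, 46.1 and 85.5 against 1.11, 0.281 and 1.43 (-5.89, SE 0.71, adjusted p 0.0112; -6.004, adjusted p 0.0130, with the block). For both genes the groups are far apart. Egflam (-4.94), Ntn1 (-3.79) and Ntn4 (-3.55) fell too, and Frem3 had 3 pooled counts against 289, 1.15% of WT (95% counting interval 0.236 to 3.39%). The syndecan Sdc4 rose, from 296, 273 and 161 to 1828, 1502 and 1296 (2.64, SE 0.33, adjusted p 0.0119, edgeR; 2.68, adjusted p 0.0156, with the block).

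Integrin and laminin chains are cell type specific, so marker genes were summed in each library. The marker counts in MEFs stand beside 5.01% of all genes called up and 4.39% called down (edgeR), or 14.0% called with the block. Counts near these shares are not read as particular to a list. In MEFs the epithelial and mesothelial markers summed, in CPM, to 16.5, 43.7 and 29.5 in WT and 5861, 4862 and 4013 in MEFs labelled Atxn7l3-/-. Of these, 5 of 8 tested were up, with or without the block. The mesothelial genes Lrrn4 (the most abundant), Upk3b and Msln carry the sum, at means of 1962, 1933 and 812 CPM in MEFs labelled Atxn7l3-/-. The epithelial genes Cdh1, Epcam and Cldn7 stayed under 2 CPM in every MEF library, and Cldn6 is at or under the floor. Of the keratins, Krt18 was up (0.427, 0.686 and 0.195 against 31.5, 5.31 and 22.8), and Krt8 (2.80) and Krt19 (-0.37) were not called. Smooth muscle markers summed to 8515, 9701 and 14646 in WT and 1920.1, 1203 and 5325 in MEFs labelled Atxn7l3-/- (1 of 4 down; Acta2 most abundant), skeletal muscle markers to 106, 46.6 and 74.5 in WT and 14.3, 18.6 and 14.3 in MEFs labelled Atxn7l3-/- (2 of 5 down; Acta1; Myf5 at or under the floor) and neuronal markers to 144, 184 and 291 in WT and 13.4, 9.42 and 47.0 in MEFs labelled Atxn7l3-/- (3 of 4 down; Map2). Endoderm markers summed to 425, 419.5 and 279.8 in WT and 1112, 1012 and 519 in MEFs labelled Atxn7l3-/- (2 of 7 up, 2 down; Dab2; Sox17 at or under the floor). Fibroblast markers summed to 8852, 45413 and 17975 in WT and 18923, 20659 and 25968 in MEFs labelled Atxn7l3-/- (Col3a1 most abundant) and macrophage markers to 945, 1184 and 565 in WT and 6274, 2291 and 862 in MEFs labelled Atxn7l3-/- (Lyz2), with 0 of 11 and 0 of 10 called by edgeR (2 and 1 with an unadjusted p under 0.05, 2 and 1 by DESeq2). Of other lists, 0 of 8 endothelial and 0 of 2 megakaryocyte markers were called by edgeR (2 and 0 with an unadjusted p under 0.05, 3 and 2 by DESeq2), and 1 of 1 erythroid and 1 of 4 pluripotency markers were up. With the block, 4 of 4 smooth muscle markers were down, 3 of 11 fibroblast markers were called (2 up, 1 down), 1 endothelial and 1 pluripotency marker were down, the erythroid marker was not called, and the other counts given here were the same. Lyz2 alone read 521, 674 and 350 in WT and 5384, 2032 and 718 in MEFs labelled Atxn7l3-/-, most of the macrophage sum in each library. The macrophage list had a median log2 fold change of 0.08, with 6 markers positive and 4 negative (edgeR). Itgam and Itgb2 were highest in the same library as the macrophage sum. Fewer cells of a type and less RNA per cell cannot be told apart in these data, and the part of these cell types in the members' changes was not tested.

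**Figure D5:**
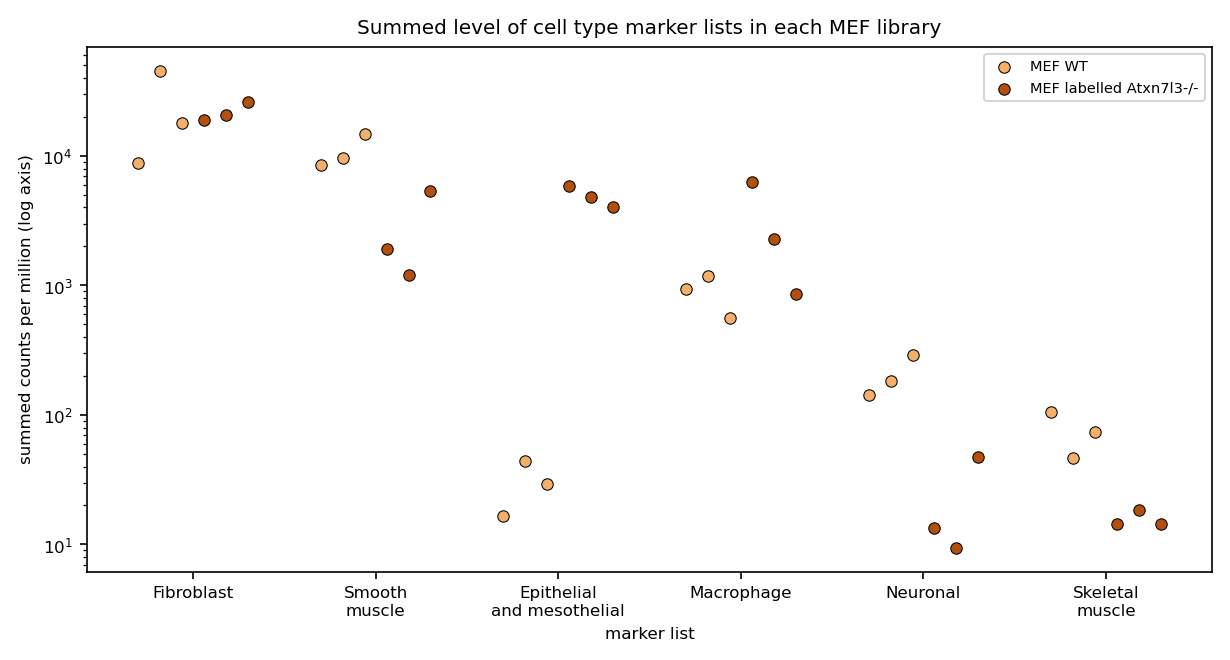
Summed level of 6 marker lists in each of the 6 MEF libraries, in CPM on a log axis. The epithelial and mesothelial sum, carried by Lrrn4, Upk3b and Msln, separates the groups by the widest margin, and the fibroblast sums overlap.

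In mESCs the pluripotency markers summed, in CPM, to 4597 and 5611 in WT and 5204, 4814 and 4763 in Atxn7l3-/- mESCs (1 of 9 down, Tdgf1; Dppa5a most abundant). Fibroblast markers summed to 50.5 and 135 in WT and 338, 469.7 and 366 in Atxn7l3-/- mESCs (2 of 10 up by edgeR, Col1a1 and Col5a1). All 10 had a positive log2 fold change (median 1.98), 7 had an unadjusted p under 0.05 (edgeR) and DESeq2 called 5, all up. Smooth muscle markers summed to 7.05 and 52.7 in WT and 99.04, 199.8 and 119.5 in Atxn7l3-/- mESCs (0 of 4 called by edgeR, 3 with an unadjusted p under 0.05, 2 by DESeq2). Of the other lists, 1 of 11 epithelial and mesothelial markers was up, 1 each of 7 endothelial, 9 endoderm and 4 neuronal markers was down, and 0 of 5 macrophage and 0 of 4 skeletal muscle markers were called by edgeR (1 and 0 with an unadjusted p under 0.05, 0 and 0 by DESeq2). Among all genes tested in mESCs, edgeR called 3.08% up and 3.88% down. Single calls in lists of this size are not read as particular to a list. DESeq2 called 5 of the 11 listed epithelial and mesothelial markers (1 up, 4 down), beside the DESeq2 share of all genes given above. Of the 11 listed endoderm markers it called 4 (3 up, 1 down). It called 1 endothelial and 1 neuronal marker, both down. The fibroblast and smooth muscle sums are far under those of WT MEFs. Their part in the result was not tested.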

How the data were processed

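RNA-seq counts of 11 libraries were analysed: 2 WT and 3 Atxn7l3-/- mESC libraries and 3 WT and 3 Atxn7l3-/- MEF libraries. Per the submitters' notes, reads were demultiplexed with bcl2fastq 2.17.1.14, trimmed with cutadapt 1.10 and mapped to mm10 with STAR 2.5.3a, and HTSeq 0.6.1p1 and DESeq2 1.16.1 are named. The annotation and the use of strand in counting are not stated. The deposited columns used for testing hold raw counts per gene, and the deposited normalized signal is the count divided by 1 size factor per library, also given per kb of median transcript length by the authors. The authors' comparison columns were not used. Library totals ran from 34515342 to 49602605 counts, and 3 counts, taken as the floor, are 0.0571 to 0.0935 CPM.

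Each cell type was fitted alone in edgeR 4.0.16 (R 4.3.3) with filterByExpr and TMM, tested with the quasi-likelihood test and adjusted by Benjamini-Hochberg over all genes tested (17800 in mESCs, 15958 in MEFs). A gene is called at an adjusted p of 0.05 or less. For counts at an unadjusted p under 0.05, or adjusted over a list alone, no share of all genes at the same cut is given. Such counts are not read as particular to the members or lists. The interaction and the WT contrast come from 1 fit of all 11 libraries on genes listed in both tables (19312 tested). Levels are TMM-scaled CPM over all 11 libraries, divided by length (deposited, or merged exons of GENCODE M21) where genes are compared. The fits were tested on simulated data. Alternatives were RLE and upper-quartile scaling, other filters, DESeq2 1.42.0, a replicate block, 1 fit of all libraries, removal of X and Y genes, the study's thresholds and leaving out each library. The GC correction used a lowess fit (span 0.3) passed to edgeR as offsets. That correction, its combination with the block and the merged exon length were chosen after seeing the data. In MEFs, the deviations of same-numbered WT and labelled Atxn7l3-/- libraries from their group means correlated across genes (r 0.473, 0.161 and 0.240, above 0.1), so that the block is given beside the MEF list counts and most named MEF results, whereas in mESCs they did not (0.0078 and -0.172). Tables and figures used Python 3.11.15, pandas 2.3.3, numpy 2.4.6 and matplotlib 3.10.9.

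Members and lists were chosen with earlier results of these data known. Members are covered by role, with values in every library for each member called in a genotype comparison and for the most abundant of each role. Others named with values were chosen after their values were seen. Of the lists, the called genes named were also chosen after their values were seen, and of most marker lists the most abundant gene is named. Of Itgam, listed by 2 overlapping gene models, the one with more counts was used. The values of 1 member and the results of some lists are not reported here.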

Additional observations from a re-analysis of the deposited data

Results flagged for a closer look

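For 8 members the genotype effect differed between the cell types by the interaction test of edgeR (log2 effect in MEFs minus that in mESCs, adjusted p of 0.05 or less). The difference was 2.23 for Itga10 and 1.70 for Lamb1, higher in MEFs, and -4.11 for Itga8, -2.69 for Lama1, -7.78 for Lama2, -2.12 for Lama4, -3.24 for Lamb2 and -2.03 for Nid1, lower in MEFs. Their effects in mESCs and MEFs were -0.52 and 1.64 for Itga10, -1.58 and 0.05 for Lamb1, -0.27 and -4.44 for Itga8, -0.09 and -2.85 for Lama1, 2.32 and -5.54 for Lama2, 0.56 and -1.62 for Lama4, 1.69 and -1.62 for Lamb2, and 1.31 and -0.78 for Nid1.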

How the results depend on the processing

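In mESCs, 3 members were called, while 1 fit of all 11 libraries gave 1 (2.31% of all genes), DESeq2 9 (10.9%) and no filter 12 (9.63%), and leaving out a library gave 0 to 5. In MEFs, 7 were called, while 1 fit of all libraries gave 11 (18.5% of all genes), DESeq2 12 (13.4%), the replicate block 12 (14.0%), the GC correction with the block 12 (12.6%), and leaving out a library gave 1 to 12. For the interaction, 8 were called, while DESeq2 gave 14 (16.0% of all genes), and leaving out a library gave 0 to 16. The 30 calls between WT MEFs and WT mESCs became 22 to 31, and 25 to 31 when a library was left out. Other settings stayed within 1.5 times these counts. No share of all genes is given for most fits that leave out a library or for the settings of the WT comparison. Those counts are not read as particular to the members. No called member reversed its direction in any setting. With the merged exon length in place of the deposited one, the share of Lama5 in WT mESCs went from 97.8% to 73.5%, of Lama4 in WT MEFs from 27.0% to 50.7%, of Lamb1 in WT MEFs from 23.3% to 48.3% and of Lamc1 in WT MEFs from 98.3% to 96.9%. In each case the cause was not tested.

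Across genes the MEF effect follows the GC content of transcripts (r -0.258, against 0.148 in mESCs; genes are not independent replicates). With the GC correction, 8 members were called in MEFs, with Itga9 lost and Itga10 and Lama5 added. The share of all genes called under this correction alone is not given, so the count is not read as particular to the members.

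With 2 WT mESC libraries, leaving out either leaves 1. At 34515342 to 49602605 counts per library, Lamb3 in MEFs labelled Atxn7l3-/- is at or under the floor of 3 counts and Itga2 in mESCs has 0 to 8 counts, and levels there are known only within counting error. Sex differs between libraries and was not separated from genotype.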
